A study of Dicosmoecus gilvipes with 20 samples.

Results

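Zonadhesin-like transcripts of the caddisfly *Dicosmoecus gilvipes* are represented by the Trinity subcomponent comp62844_c0, a set of assembled contigs that share sequence and are taken as products of a single locus. It holds 3 of the 135858 contigs of the transcriptome, comp62844_c0_seq1, seq2 and seq3, and is 1 of 79613 subcomponents. Every contig with the identifier of this subcomponent was included, and component comp62844 has no other subcomponent. The subcomponent came to attention because comp62844_c0_seq3 was low in warm larvae in these same libraries. Its levels across temperature are therefore given as a description, without a test. Later statements rest on what that choice did not use, such as the division of reads among the contigs, the spread between libraries and the values of other transcripts.

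The study exposed larvae in the fifth instar to 15.5, 20, 25 or 28.6°C to find transcripts that respond to warming, and sequenced polyA RNA of the thorax. All larvae were collected in the field and first kept at a common cool temperature, then warmed over several days and held for a day. Each temperature has 5 libraries, 20 in all, run on 1 lane. The libraries of a temperature come from pooled RNA of the same larvae, so the spread between them is that of library preparation and counting and not of animals. No library shows how single larvae varied. In whole-thorax RNA, fewer cells that make a transcript cannot be told apart from less transcript per cell.

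Zonadhesin was described in mammals as a sperm membrane protein that binds the zona pellucida, the coat of the egg. It is a large mosaic protein with mucin-like repeats and repeated von Willebrand factor D domains, cysteine-rich modules found in many secreted and adhesive proteins. Insects have no zona pellucida, and insect proteins with this name often match it through small cysteine-rich domains resembling trypsin inhibitors. Tenascin-X, the match of the companion contig, is a large glycoprotein of the vertebrate extracellular matrix.

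The annotation in the deposited table of differentially expressed transcripts rests on partial matches. For seq3, a contig of 1811 bases, the match to mouse zonadhesin (O88799) covered bases 579 to 1460, which is 48.7% of the contig, at 27.4% identity and an E value of 7e-07. It fell on residues 4402 to 4694 of the mouse protein. For seq2, with 1780 bases, the match was to human tenascin-X (P22105) over bases 296 to 1168, or 49.0% of the contig, at 24.9% identity and an E value of 9e-07. The best match of these contigs thus named different proteins, although they shared most of their reads. The short contig seq1, with 510 bases, had no annotation. The table lists 2586 transcripts, 1393 of them annotated, and seq3 is the 1 entry that names zonadhesin. The name is used below for a partial match only, and no egg-binding role is implied.

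Depth ranged from 6756103 to 14236152 estimated counts per library. The contigs of comp65386_c0, whose share differed strongly between libraries, took 45.0% and 77.0% of the counts of replicates 1 and 4 at 20°C, between 4.91% and 15.1% at 28.6°C and between 0.490% and 2.45% in the remaining libraries. Unless stated otherwise CPM leaves that subcomponent out, and between 2485595 and 14075957 counts per library then remain. CPM is the count per 1000000 counts of the library, whose size is first multiplied by edgeR's TMM factor. Fold changes between temperatures are relative to a median of all tested contigs that TMM holds near 0. TMM factors ranged from 0.802 to 0.903 at 20°C and from 1.10 to 1.17 at 15.5°C. Scaling by library size alone moves every contig by 0.35 on the log2 scale at 25°C relative to 20°C, and by -0.18 at 28.6°C relative to 15.5°C.

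Reads that mapped anywhere in the subcomponent can be counted without dividing them among its contigs. The 5 libraries at 15.5°C held 1463, 2156, 1173, 1140 and 1240 such reads. The 5 libraries at 20°C held 129, 225, 180, 45 and 297. At 25°C the numbers were 220, 171, 169, 190 and 206. The middle temperatures thus gave like numbers, apart from the shallow replicate 4 at 20°C. Those at 28.6°C held 18, 24, 12, 3 and 10 reads. The transcript was thus well sampled in cool larvae and near the limit of counting in the warmest. The totals per temperature were 7172, 876, 956 and 67 reads. A few reads in some libraries also matched 1 contig outside the subcomponent, comp51872_c0_seq1, which received at most 5 estimated counts.

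Almost all of these counts were assigned to seq3, the zonadhesin match. At 15.5°C it stood at 127, 122, 128, 126 and 123 CPM in replicates 1 to 5. At 20°C the values were 26.0, 26.6, 27.7, 19.6 and 27.7 CPM. At 25°C they were 19.2, 21.4, 17.8, 20.3 and 20.3 CPM. Every library at 15.5°C was far above every library at the middle temperatures. The ranges at 20 and 25°C overlapped through replicate 4 at 20°C. At 28.6°C the values were 1.87, 2.71, 0.721, 0.125 and 1.05 CPM, all below the lowest library at the middle temperatures. Levels therefore fell in steps, between 15.5 and 20°C and again between 25 and 28.6°C, with a smaller difference between 20 and 25°C.

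**Figure D1:**
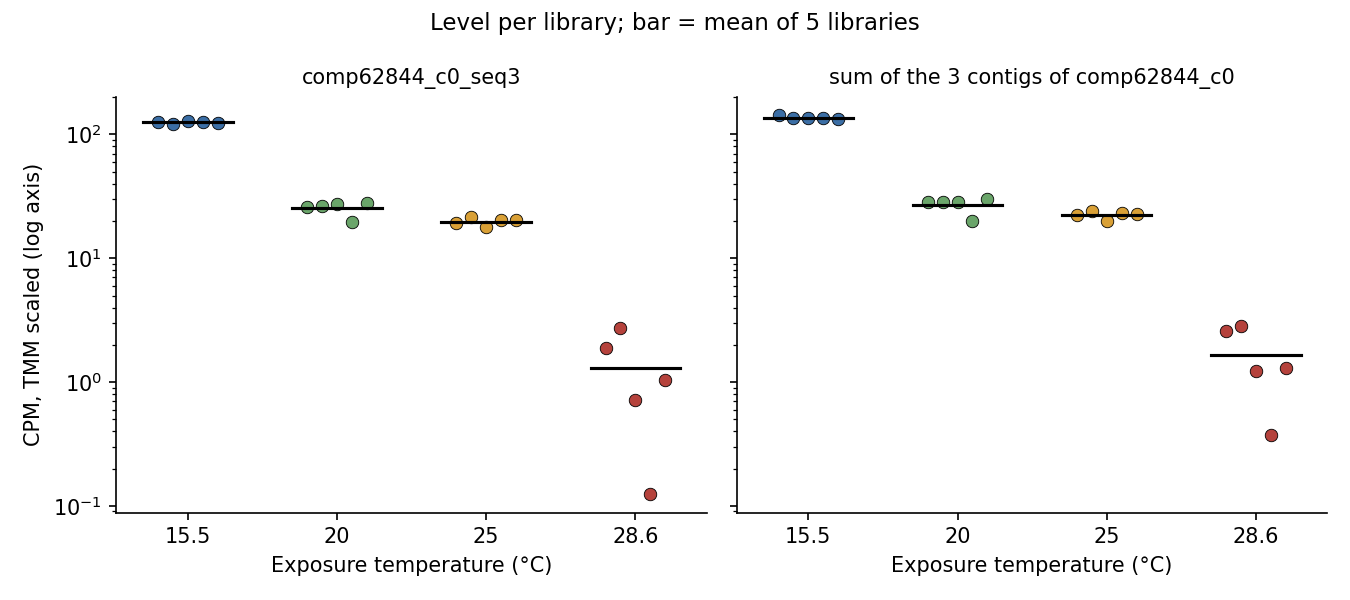
CPM (TMM scaled, log axis) against exposure temperature for comp62844_c0_seq3 and for the sum of the 3 contigs; each point is a library and each bar the mean of 5. The libraries at 15.5°C lie between 122 and 128 CPM for seq3, those at 20 and 25°C between 17.8 and 27.7, and those at 28.6°C between 0.125 and 2.71.

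As means, seq3 was at 125.2 ± 2.74 CPM (SD, n = 5) at 15.5°C, 25.5 ± 3.38 at 20, 19.8 ± 1.37 at 25 and 1.29 ± 1.01 at 28.6°C. The first step was a 4.91-fold difference in mean CPM, from 15.5 to 20°C. The mean at 25°C was 77.6% of that at 20°C. The libraries of these temperatures overlapped through replicate 4 at 20°C alone, since the other 4 held 26.0 to 27.7 CPM and those at 25°C 17.8 to 21.4. The second step, from 25 to 28.6°C, was 15.3-fold and so larger than the first. Over the whole range the mean fell 96.7-fold, and the difference in mean log2 CPM was -6.67 (SE 0.52). The SD at 15.5°C is a CV of 2.19%, against a median of 6.33% over the 1326 contigs whose mean there was within a factor of 2 of that of seq3. Of those contigs 4.00% had a smaller CV.

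The sum over the subcomponent behaved as its main contig. It was at 136.7 ± 3.30 CPM (SD, n = 5) at 15.5°C, 27.1 ± 4.03 at 20, 22.5 ± 1.46 at 25 and 1.67 ± 1.02 at 28.6°C. This is an 82.0-fold fall in mean CPM between the extreme temperatures, with a difference in mean log2 CPM of -6.38 (SE 0.42). The loss was therefore present without any division of shared reads by the counting program. Reads that mapped to seq3 and nowhere else showed it as well, with 1407 in the 5 libraries at 15.5°C, 161 at 20, 174 at 25 and 9 at 28.6°C.

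The order of the middle temperatures depended on scaling. With TMM, seq3 was 25.5 CPM at 20°C and 19.8 at 25°C. As CPM without comp65386_c0 and without TMM factors, it was 21.0 ± 1.92 (SD, n = 5) at 20°C and 20.9 ± 1.58 at 25°C. The sum of the subcomponent then turned the other way, with 22.3 ± 2.47 CPM at 20°C and 23.8 ± 1.67 at 25°C. With comp65386_c0 left in the library size, the 20°C libraries of seq3 spread from 4.07 to 22.4 CPM. The low values were those of replicates 1 and 4, in which comp65386_c0 was most abundant. Neither order of 20 and 25°C is supported under all scalings, whereas the steps on either side held under each of them.

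**Figure D2:**
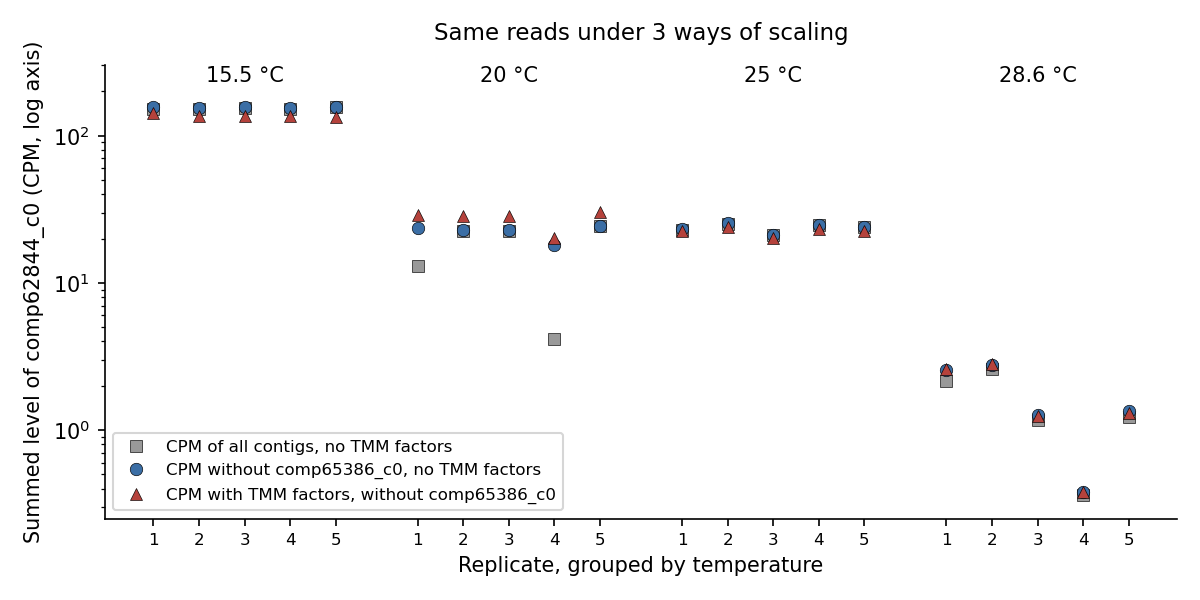
Summed reads of comp62844_c0 in each of the 20 libraries (log axis), as CPM of all contigs without TMM factors (squares), CPM without comp65386_c0 and without TMM factors (circles) and CPM with TMM factors (triangles). Within 20°C, replicates 1 and 4 are lowest as a share of all counts, where replicate 4 is at 4.17; without comp65386_c0 it is at 18.1, and with TMM at 20.1.

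Replicate 4 at 20°C remained the lowest library of its temperature after scaling, with 19.6 CPM for seq3 from 44.5 estimated counts. It is also the library with the fewest counts outside comp65386_c0. Its 45 summed reads allow 13.2 to 24.2 CPM without TMM factors (exact Poisson interval, 95%), which overlaps the 19.5 to 26.3 of replicate 3. Without replicate 4 the mean of seq3 at 20°C was 27.0 ± 0.839 CPM (SD, n = 4), and without replicates 1 and 4 it was 27.3 ± 0.654 (SD, n = 3).

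The spread among libraries did not exceed counting error at the 3 cooler temperatures and exceeded it at 28.6°C. For summed reads set against depth, the chi-square per degree of freedom was 0.215 at 15.5°C, 0.951 at 20 and 0.883 at 25, where a value near 1 is that of counting alone. At 28.6°C it was 4.73. Replicate 2 there held 2.76 CPM without TMM factors (exact Poisson interval 1.77 to 4.11), and replicate 4 held 0.379 (0.0782 to 1.11). These intervals cover counting error only, since the reads carry no molecular identifiers. The residual level in the warmest larvae thus ranged from 0.376 to 2.83 CPM over the libraries for the subcomponent, and the fold change to that temperature is less precise than the earlier step.

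The 3 contigs shared most of their reads. Over all libraries seq3 received 8256 estimated counts, 91.0% of the subcomponent, of which 1751 mapped to no other contig. The tenascin-X match, seq2, was hit by 7049 reads but only 2 of them were unique to it, so its 402 estimated counts come from the program's division of reads shared with seq3. The short contig seq1 had 413 estimated counts and 161 unique reads. There is thus direct evidence in unique reads for seq3 and seq1, and almost none for seq2 as a separate transcript.

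Levels of seq2 were low and followed the same order at the extremes. At 15.5°C it was at 5.62 ± 3.10 CPM (SD, n = 5), from 2.66 to 10.4. It was at 0.689 ± 0.556 CPM at 20, 1.48 ± 1.003 at 25 and 0.0763 ± 0.113 at 28.6°C. In 3 of the 5 libraries at 28.6°C fewer than 0.5 counts were assigned to it, and the lowest library at 15.5°C overlapped the highest at 25°C. Its level also differed with the longest read position at 15.5°C. The 15.5°C libraries whose longest read position was 99 held 8.52 CPM of seq2 (n = 2), and those with 188 held 3.69 (n = 3), without overlap. For seq3 the same groups held 124 and 126 CPM, so at 15.5°C the division between seq2 and seq3 moved with the longest read position. No such difference was seen at 25°C, where the library with 99 held 1.83 CPM of seq2 and those with 188 held 0 to 2.69 (n = 4). The cause was not tested.

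Levels of seq1 were also low. At 15.5°C it was at 5.92 ± 0.957 CPM (SD, n = 5), and its libraries at 20°C had 0.927 ± 0.850. At 25°C it was at 1.21 ± 0.932 CPM and at 28.6°C at 0.296 ± 0.305. Every library at 15.5°C was above every warmer library, while the 3 warmer temperatures overlapped one another. The second step seen for seq3 was therefore not resolved for this contig. Between 15.5 and 28.6°C its mean fell 20.0-fold in CPM. Per length, in the FPKM of the counting program, which keeps comp65386_c0, seq3 stood above seq1 at 15.5°C, with means of 65.2 and 19.1. At 28.6°C the FPKM means were 0.553 for seq3 and 0.739 for seq1, on 61 and 12 reads that mapped to them at all.

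**Figure D3:**
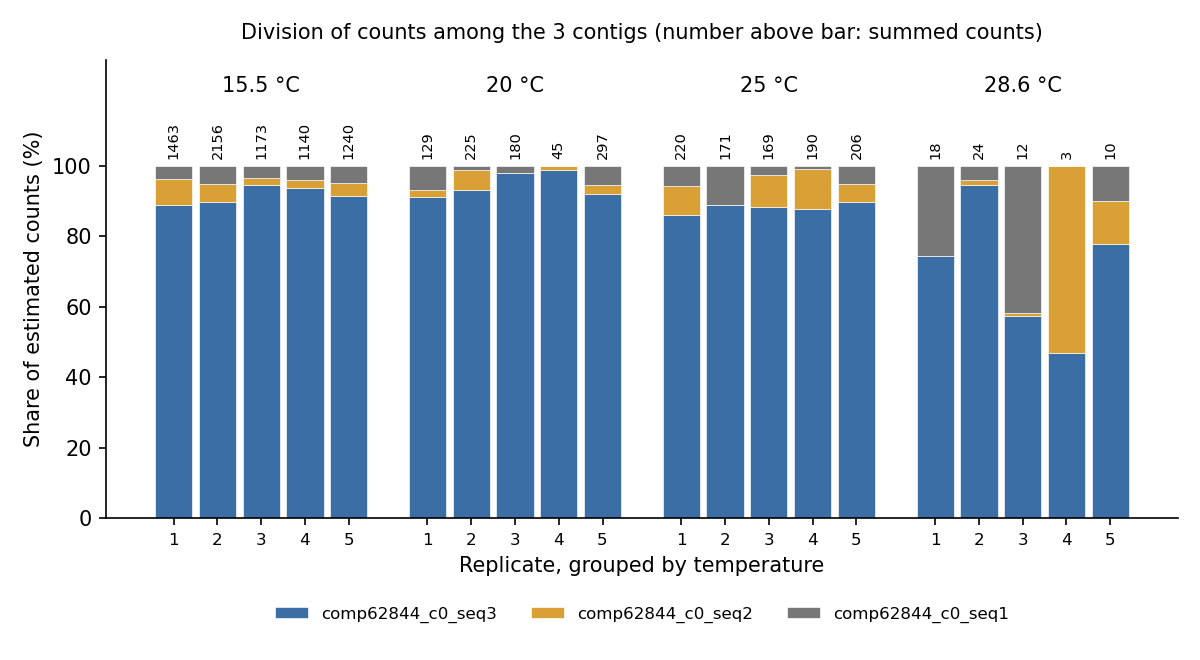
Share of the estimated counts of comp62844_c0 (%) assigned to seq3, seq2 and seq1 in each library, with the summed count above each bar. Between 86.0% and 98.9% went to seq3 in the 15 libraries up to 25°C, and between 46.9% and 94.5% in the 5 libraries at 28.6°C, which held 3 to 24 counts each.

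The share of the subcomponent assigned to seq3 was 91.6 ± 2.39% (SD, n = 5) at 15.5°C, 94.6 ± 3.53% at 20, 88.1 ± 1.42% at 25 and 70.2 ± 18.6% at 28.6°C. In replicate 4 at 28.6°C the program marked the division of its 3 reads between seq2 and seq3 as not solvable. Counting each read for every contig it could map to, 97.6% of the reads of the subcomponent at 15.5°C reached seq3 (7002 of 7172), and 91.0% did so at 28.6°C (61 of 67, exact 95% interval 81.5 to 96.6%). Reads reaching seq1 made up 5.01% at 15.5°C (359 of 7172, exact 95% interval 4.51 to 5.54%) and 17.9% at 28.6°C (12 of 67, 9.61 to 29.2%). Shares by library at 28.6°C ran from 0 to 41.7%, and replicates 1 and 3 held 5 each of these 12 reads. Reads reaching seq2 were a like share at every temperature, from 77.3% at 15.5°C to 80.6% at 28.6°C.

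Libraries differed in their longest read position, and this was not evenly spread over temperatures. The sample labels do not say what the difference stands for. The longest read position in the parameter files of the counting program was 188 bases in 3 libraries at 15.5°C, 1 at 20 and 4 at 25, and 99 in all others, including all 5 at 28.6°C. Within the libraries with 99, the mean of seq3 was 124 CPM at 15.5°C (n = 2), 25.0 at 20 (n = 4), 19.2 at 25 (n = 1) and 1.29 at 28.6°C (n = 5). The steps there were of like size to those over all libraries.

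In the edgeR quasi-likelihood fit of all contigs, 30413 were tested and 3476 were called between 28.6 and 15.5°C, at an adjusted p below 0.05 and at least a 4-fold change. That is 11.4% of contigs, with 4.77% lower and 6.66% higher at 28.6°C. The excess of higher calls rests on TMM, since scaling by library size alone gave 1785 higher and 1743 lower. All 3 contigs of comp62844_c0 passed the filter and fell among those called lower. For seq1 and seq2 the filter was passed mainly through the libraries at 15.5°C, where their level was highest, which favours a lower call. Since the 3 contigs were chosen on this contrast, nothing further is read from it. The fitted log2 fold changes were -6.36 (SE 0.30) for seq3, -4.22 (SE 0.67) for seq2 and -3.53 (SE 0.59) for seq1. The median over all contigs tested was 0.01.

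A stepwise fall without overlap across either step was uncommon among well-expressed contigs. Of 8688 contigs with a mean of at least 10 CPM, 101 (1.16%) fell as seq3 did, with overlapping libraries at 20 and 25°C, and 54 (0.622%) showed the mirror image. Under scaling by library size alone 184 contigs fell in this way. With TMM, seq3 itself met the criterion of overlap at 20 and 25°C through replicate 4 at 20°C. With at least a 2-fold difference in mean CPM at both steps 16 remained, with 3-fold 3 and with 4-fold only seq3. These criteria were set after its values were seen and use the levels on which it was chosen, so its place is a description. By library size alone these counts were 32, 10 and 4, so that its position as the sole such contig rests on TMM.

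The contigs with the most similar profile were found by the correlation of log2 CPM with that of seq3. Over the 20 libraries, 43 of 8687 contigs had a Pearson r of at least 0.95 and 225 of at least 0.9. The 20 points are 4 temperatures with 5 libraries each, so any transcript that falls with warming will rank high. The 10 most similar had r from 0.972 to 0.986 and came from 8 subcomponents. Only comp60990_c0_seq3 and comp54096_c0_seq2 of these carried an annotation. Without replicates 1 and 4 at 20°C, 9 of the 10 were again among the top 10, but with Spearman's rho none was.

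The most similar annotated contig was comp60990_c0_seq3, which matches Mucin-19, a gel-forming secreted glycoprotein that, like zonadhesin, has von Willebrand factor D domains. It ranked second, with r = 0.985. Its mean was 64.5 ± 3.49 CPM (SD, n = 5) at 15.5°C, 32.4 ± 2.60 at 20, 19.6 ± 1.77 at 25 and 3.54 ± 1.23 at 28.6°C. With TMM its libraries at 25°C lay below those at 20°C without overlap, as did those of seq3 once replicate 4 at 20°C was left out. Summed over the 4 contigs of its subcomponent the fall was smaller, from 79.5 ± 3.83 CPM at 15.5°C to 13.2 ± 1.97 at 28.6°C, or to 16.5% of the cool level. The next annotated contig, comp54096_c0_seq2, matches retinoid-inducible serine carboxypeptidase, a secreted or lysosomal protease. It fell from 42.5 ± 6.01 CPM at 15.5°C to 0.661 ± 0.231 at 28.6°C (SD, n = 5), with r = 0.973, but only 0.131% of its counts were unique. The first in rank, comp58188_c0_seq1, has no annotation and declined much less, from 125.8 ± 9.03 to 23.4 ± 4.19 CPM. Similarity of shape thus did not mean a loss of the same size.

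**Figure D4:**
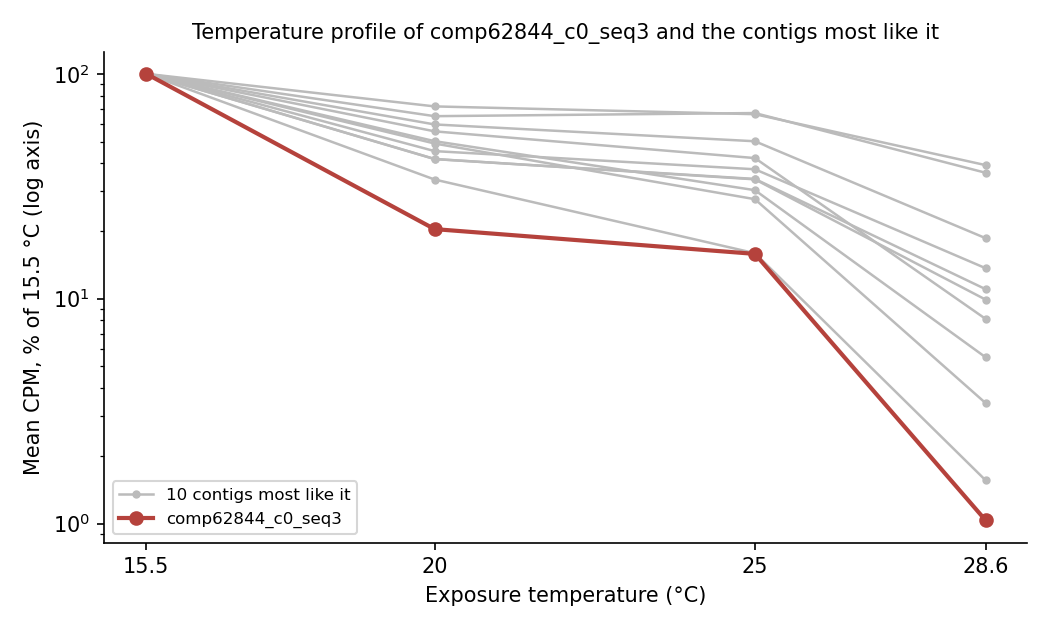
Mean CPM at each exposure temperature as a percent of that at 15.5°C (log axis) for comp62844_c0_seq3 and the 10 contigs whose log2 CPM correlated best with it; points are means of 5 libraries. At 28.6°C seq3 is at 1.03% of its level at 15.5°C, below all 10.

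Further annotated contigs of similar profile ranked below the first 10. Chymotrypsin-elastase inhibitor ixodidin (comp37913_c0_seq1), described in a tick as a cysteine-rich inhibitor of serine proteases, ranked 14 with r = 0.967. It fell from 70.3 ± 3.39 CPM at 15.5°C to 10.2 ± 2.11 at 28.6°C (SD, n = 5). Apolipoprotein D (comp56713_c0_seq1), a carrier of small lipids, ranked 17 with r = 0.964 and was at 35.1 ± 3.94 and 4.38 ± 0.771 CPM. Phenoloxidase subunit A3 (comp65529_c0_seq1), an enzyme of melanin formation in insect blood cells, ranked 22 with r = 0.959 and was at 131.6 ± 12.6 and 6.89 ± 1.94 CPM, with 5.51% of its counts unique. Its profile thus depends on how shared reads were divided. Another contig of the same match, comp65529_c0_seq3, was at 153.4 ± 8.12 CPM at 15.5°C, 241.3 ± 18.9 at 25 and 56.9 ± 8.51 at 28.6°C. Within comp62844_c0, seq1 and seq2 correlated with seq3 at r = 0.78 and 0.76.

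Other adhesion and extracellular matrix transcripts were taken from the annotations of the deposited table by keyword. That table had been selected by the authors as temperature-responsive in these libraries, so that counts of its members are not independent evidence. Outside comp62844_c0 the list held 22 contigs from 7 subcomponents, of which 15 contigs were tested. At 28.6°C against 15.5°C, 9 were called lower, 2 higher and 4 were not called, with a median log2 fold change of -2.36. Among all 1082 tested contigs with an annotation in that table, 27.0% were called lower and 26.4% higher, with a median of -0.41. The difference between the list and the table was not tested, and 5 of the contigs called lower belong to a single subcomponent. Some members called lower, such as comp57818_c5_seq9 and comp59991_c0_seq6, passed the filter on low counts only or mainly through the libraries at 15.5°C. The 2 called higher passed it only or mainly through those at 28.6°C. These counts thus describe the list and carry no further weight. The keyword integrin also caught 4 contigs annotated as disintegrins, of which 1 was tested. Without them 8 of 14 were called lower and 2 higher, with a median of -2.29. On unique reads alone only 5 list members were called, comp62844_c0 included, and all 5 were lower.

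That subcomponent was comp59991_c0, with 6 contigs matching collagen alpha-2(IV), a chain of the basement membrane network. At most 1.16% of the counts of its contigs were unique, so the contigs cannot be ranked against each other. Their sum was 927.5 ± 60.3 CPM (SD, n = 5) at 15.5°C, 625.9 ± 28.2 at 20, 448.1 ± 41.8 at 25 and 153.5 ± 66.1 at 28.6°C. It fell to 16.5% of its cool level, where seq3 fell to 1.03%. The log2 fold changes of the called contigs with a mean of at least 10 CPM were -4.01 for seq4, -3.80 for seq1, -2.36 for seq2 and -2.22 for seq3 of comp59991_c0.

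Mucin-19 (comp60990_c0_seq3) had the lowest log2 fold change of the list members outside comp62844_c0 that reached a mean of 10 CPM, -4.10 (SE 0.16; edgeR adjusted p = 1.23e-13). Cadherin-89D (comp58059_c0_seq1), a cell adhesion protein named in *Drosophila*, was at 29.8 ± 1.17 CPM at 15.5°C, 18.4 ± 2.01 at 20, 10.4 ± 0.744 at 25 and 5.00 ± 0.914 at 28.6°C (SD, n = 5). All its counts were unique, and its log2 fold change was -2.52 (SE 0.11; edgeR adjusted p = 7.52e-13). Its libraries overlapped at no pair of temperatures. Both contigs come from the table selected on these libraries, so their p-values are a description and not independent evidence. A further contig matching Mucin-19, comp53642_c0_seq1, had a log2 fold change of -2.62 (SE 0.22) at a mean of 4.80 CPM and was named after its value was seen.

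No list member that rose reached a mean of 10 CPM. The contigs that rose, named here after their values were seen, were comp61339_c6_seq3 and comp61339_c6_seq4, both matching cell adhesion molecule 4, an immunoglobulin-type adhesion protein of vertebrates. Neither had a unique read. Both passed the filter on low counts only or mainly through the libraries at 28.6°C, which favours a higher call. For seq4 the highest library at 15.5°C was at 1.07 CPM, against 5.64 to 9.68 at 28.6°C. The 9 contigs of that subcomponent summed to 2.37 ± 0.162 CPM at 15.5°C and 22.0 ± 5.10 at 28.6°C (SD, n = 5). Integrin alpha-PS3 (comp61211_c3), a receptor for matrix proteins in *Drosophila*, had 3 tested contigs and none was called. Of these seq4 and seq2 passed the adjusted p but, at log2 fold changes of -1.97 and -1.89, not the 4-fold threshold. The other, seq1, was at -1.12 and did not pass the adjusted p. The sum of comp61211_c3 was 30.7 ± 2.04 CPM at 15.5°C, 36.5 ± 3.65 at 20, 15.7 ± 1.01 at 25 and 10.2 ± 1.19 at 28.6°C.

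Because insect zonadhesin-like proteins often resemble trypsin inhibitors, annotations naming protease inhibitors were searched as well. The keywords did not cover the name of ixodidin and matched 1 contig, comp64769_c0_seq21, with an entry for locust serine protease inhibitor I/II, a small inhibitor of the pacifastin family. It was at 21.9 ± 1.72 CPM at 15.5°C, 7.81 ± 1.42 at 20, 6.12 ± 0.317 at 25 and 2.76 ± 0.732 at 28.6°C (SD, n = 5), with a log2 fold change of -2.89 (SE 0.16; edgeR adjusted p = 2.11e-11). Its mean over all libraries was 9.66 CPM, below the level set for naming, and it is given as the single match. It too comes from the table selected on these libraries, so its p-value is a description.

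Tissue markers, except for a muscle contig named below, were taken by keyword from the deposited table of temperature-responsive transcripts. Their movement with temperature in these libraries was thus built into that choice. Among the 1082 tested contigs annotated there, 27.0% were called lower and 26.4% higher. Over all tested contigs the shares were 4.77% and 6.66%. The marker lists were not tested against these shares. The summed CPM of 17 tested epidermis and cuticle contigs was between 4309 and 4676 at 15.5°C, between 2724 and 3268 at 20, between 1177 and 1409 at 25 and between 375 and 511 at 28.6°C, and 14 of them were called lower at 28.6°C and none higher. The cuticle sum therefore declined with each rise in temperature. Blood cell markers, without a disintegrin contig caught by the keyword integrin (8 tested, 3 lower, none higher), stayed between 363 and 456 CPM up to 25°C and were between 88.5 and 110 at 28.6°C. Gut markers (45 tested, 25 lower, none higher) had medians of 10993, 21717, 7313 and 3354 CPM with warming. Fat body markers (6 tested, 3 lower, none higher) had medians of 8482, 37676, 7933 and 4412 CPM. These sums did not decline in order, since both were highest at 20°C. Muscle markers (26 tested, 9 lower, 6 higher) were at medians of 3609, 3481, 2326 and 10022 CPM. All 6 that rose were contigs of comp64509_c1, matching muscle-specific protein 20, whose median sum was 8462 CPM at 28.6°C. Without that subcomponent the muscle medians were 1904, 2627, 1777 and 1600 CPM, and 9 of 19 contigs were lower and none higher. Those lower included comp60320_c4_seq1, seq5, seq12, seq13 and seq16. They belong to a single subcomponent, match muscleblind through the keyword muscle and have no unique reads. Much of the muscle sum without comp64509_c1 was comp62634_c1_seq14, at means of 1111, 1466, 1311 and 1341 CPM. It is a troponin I contig added by identifier, and also has no unique reads. The study used it as a reference gene, picked for low variation in these libraries, so its steady level was part of that choice. Muscle transcripts, which the thorax label calls for, were thus present at every temperature, and no annotation in the table matched the silk gland keywords. None of the marker sums fell as far as seq3, but a sum over many contigs is unlike a single contig chosen for its fall. Among single markers tested, the lowest log2 fold change was -6.08 (SE 0.29), against -6.36 for seq3. It was that of comp60320_c4_seq16, a muscleblind contig caught by the keyword muscle, without unique reads. The part of the tissue markers in the fall of seq3 was not tested.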

How the data were processed

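Thorax RNA of larvae held at 4 temperatures was sequenced as 20 libraries. According to the submitters' processing notes, the authors used Trim Galore 0.3.0, Bowtie2 2.0.6, eXpress 1.5.1 and edgeR 1.2.4, on a transcriptome they assembled without a reference. Counts in the deposited files are whole reads per contig, either every mapped read or the reads unique to that contig. In the deposited estimated counts, shared reads were apportioned by eXpress's probability model. FPKM values in the deposited files are eXpress's own, and the deposited table holds centred log2 values that equal log2(FPKM + 1) less each contig's mean. Groups were taken from the temperature in the sample labels. Columns left unread numbered 0, and the parameter files served only for the longest read position. Contig sequences were not used here.

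Estimated counts were rounded, comp65386_c0 was removed, and contigs with at least 2 CPM in at least 4 libraries were fitted with edgeR 4.0.16 in R 4.3.3 (TMM, quasi-likelihood test, all 20 libraries, 1 coefficient per temperature, prior count 2, Benjamini-Hochberg adjustment over 30413 contigs). A call needed an adjusted p below 0.05 and a 4-fold change. In simulated data for the comparison of 28.6 with 15.5°C, 200 of 30413 contigs were changed, all with a mean of at least 10 CPM. Of 8-fold changes 99% were called, and 2 unchanged contigs were called. The 0% called among 2-fold changes follows from the 4-fold threshold. Contigs of lower level, such as seq1 and seq2 of comp62844_c0, are not covered by the 99%. Tables used Python 3.11.15, numpy 2.4.6, pandas 2.3.3, scipy 1.17.1 and matplotlib 3.10.9.

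The members and the keyword lists were chosen with earlier results of these data known. Contigs were named by rule: all of comp62844_c0, the 10 most similar by Pearson r and the 5 most similar with an annotation, and, of the adhesion and inhibitor lists, the 5 highest and 5 lowest fold changes among called contigs with a mean of at least 10 CPM. Alternatives were DESeq2 1.42.0, other scaling factors, other filters, other kinds of count and other prior counts. Further ones were the longest read position as a covariate, the replicate number as a block, and each library left out. Scaling of the middle temperatures by library size, the stepwise criteria under it the 20°C means without replicates, and the marker sums without single subcomponents were added after the data were seen. Because libraries of a temperature share larvae, p-values measure only the spread between these libraries.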

Additional observations from a re-analysis of the deposited data

Results flagged for a closer look

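Among 16 sets of 5 libraries (the 3 contigs and their sum at 4 temperatures), 3 had a library that stood far from its neighbour relative to the range, and chance gives about 1 in 20. The sum contains seq3, so these are not independent. At 20°C, replicate 4 was the lowest for seq3, with 19.6 CPM against 26.0 in the next library, and for the sum, with 20.1 CPM against 28.3. In that library 77.0% of counts belonged to comp65386_c0. The part of that share in the low value was not tested. At 15.5°C, replicate 1 was the highest for the sum, with 142.6 CPM against 135.7 in the next library. Without TMM factors it was at 156.7 CPM, inside the 153.2 to 157.2 of that temperature, so its place rests on TMM.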

How the results depend on the processing

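The fall of seq3 between 15.5 and 28.6°C was -6.67 in mean log2 CPM and kept its direction in all 20 alternatives, from -7.01 with a prior count of 0.5 to -6.02 with unique counts. With each library left out it lay between -6.98 and -6.23. The summed level (-6.38) ranged from -6.59 to -5.73 in 20 alternatives, and between -6.59 and -6.01 with a library left out. The share of seq3 in its subcomponent changed by -21.4 percentage points, and by -30.3 to -15.6 in 14 alternatives. With a library left out that share changed by -27.5 to -15.6 points. The 3476 calls over all contigs became 13990 by the adjusted p alone and 1460 with unique counts. They numbered between 3313 and 3403 with a library left out. The 13 calls of the adhesion and matrix list, comp62844_c0 included, became 5 with unique counts and 12 to 14 with a library left out. Of the 10 contigs most like seq3, 0 were shared with the 10 by Spearman's rho. Whether replicate numbers pair the libraries was not settled. Same-numbered libraries at 15.5 and 28.6°C correlated weakly, at 0.00646 to 0.0380, but 3 of 5 numbers correlated best with themselves. With the replicate block 3525 contigs and 14 list members were called. The fall of seq3 stayed at -6.67 by construction, since each temperature holds each replicate number once. For seq3 and the sum this alternative could not differ from the main value. In log2 of mean CPM, seq3 at 25 against 20°C was -0.37 with TMM, -0.01 by library size alone and 0.35 with comp65386_c0 kept, and the sum was -0.27, 0.09 and 0.44. Depth limits the level at 28.6°C, where libraries held 3 to 24 reads. Changes in other results under these settings were not traced to a cause.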
